A study of Mus musculus with 6 samples.

Results

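Caspases and the receptors and scaffold that switch them on were examined in the rostral telencephalic primordium of control mouse embryos at E11.5 and of embryos with a conditional deletion of Dicer, the ribonuclease that releases mature miRNAs from their precursors. The 8 genes were taken by name from the 55471 genes of the count files. They were the initiator caspase genes Casp2, Casp8 and Casp9, the apoptosome scaffold gene Apaf1, the caspase inhibitor gene Xiap, the death receptor genes Fas and Tnfrsf10b, and Perp, a membrane protein gene. RNA-seq was available for 3 control samples (DicerF/F, floxed Dicer without Cre, given as WT in the genotype label) and 3 Rx-Dicer samples (RxCre-DicerF/F), so that both genotypes carried the floxed allele Dicer1tm1Bdh/J. The floxed mice were kept on C57BL/6 and the Rx3-Cre mice on CD1, and the labels do not give the mix of strains in each embryo. Rx-Cre recombines mainly in the rostral and ventral telencephalon, which takes in the dissected region. The tissue could still hold cells that kept Dicer, and their share was not tested. The sources do not say whether a library was 1 embryo or a pool, and p-values therefore measure only the spread between these samples.

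Apoptosis can start at the cell surface or inside the cell. On the surface, ligands such as FASL and TRAIL bind death receptors, which recruit the adaptor FADD and activate caspase 8. Inside the cell, cytochrome c that leaks from mitochondria makes APAF1 assemble into the apoptosome, which activates caspase 9, while XIAP binds and blocks caspases. Caspase 2 is activated on a further platform, the PIDDosome, made of PIDD1 and CRADD. Several of these genes, among them Fas, Tnfrsf10b, Apaf1, Perp and Pidd1, are known as transcriptional targets of p53. Caspases are made as inactive precursors, and transcript counts do not measure their activation.

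Libraries held 34471501 to 48373468 counts on genes, and the totals of the genotypes overlapped. Counts were scaled by median-of-ratios size factors, and the result is called the normalised read count here. Dicer1 itself had normalised read counts of 6355, 7070 and 6270 in the controls and 4777, 7002 and 4644 in Rx-Dicer samples 1, 2 and 3 (DESeq2 adjusted p = 0.567). These counts take in the whole gene and do not show the floxed exons apart, so they do not test the deletion. The library labelled Rx-Dicer 2 lay at the control level of Dicer1, and of the summed level of 6 neuroepithelial markers, most of which came from 1 gene (2005 CPM against 1899 to 2032 in controls and 1519 and 1487 in Rx-Dicer 1 and 3). All 6 had counts in every library. In the 2 of them that were called, however, that library was the one furthest from the controls. Pax6, a regulator of forebrain progenitors, had 7210, 6927 and 6726 normalised read counts in controls and 5064, 4749 and 5629 in Rx-Dicer 1, 2 and 3, with a log2 fold change of -0.43 ± 0.12 (DESeq2 adjusted p = 0.013). The other was called higher, and these measures together do not settle how that library compares with its group. Reads that matched no annotated exon were 10.75% of all reads in that library, against 6.79 to 8.32% in the others. The summed level of 8 microglia and macrophage markers was 22.2 to 28.1 CPM in controls, 26.3 in the library labelled Rx-Dicer 2, and 88.0 and 53.7 in Rx-Dicer 1 and 3. In bulk tissue, fewer cells of a type and less RNA per cell cannot be told apart.

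Of the 8 genes, Tnfrsf10b was the single gene that DESeq2 called higher in Rx-Dicer samples. A gene was called where DESeq2 gave it an adjusted p under 0.05 and the fold change passed the minimum of the study, a rise of 25% or the equivalent fall. DESeq2 tested 7 of the 8 genes. Fas had too few counts for an adjusted p. Across all 17128 genes tested, 502 were called (2.93%), and 300 of them were higher in Rx-Dicer samples (1.75%). The remaining 6 tested genes were not called in either direction. At an unadjusted p under 0.05, Casp8 and Tnfrsf10b were the 2 genes of 7, both higher, against 13.1% of all genes tested. The 3 Rx-Dicer values lay above the 3 control values for Casp2, Casp8, Apaf1 and Tnfrsf10b, 4 of the 7, against 8.55% of all genes tested, and also for Fas, which was not tested. The median log2 fold change of the 7 tested genes was 0.21, against -0.0009 over all genes tested. After a correction for gene length and GC content these medians were 0.10 and -0.05. With so few genes, chosen by name, these shares are a description.

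**Figure D1:**
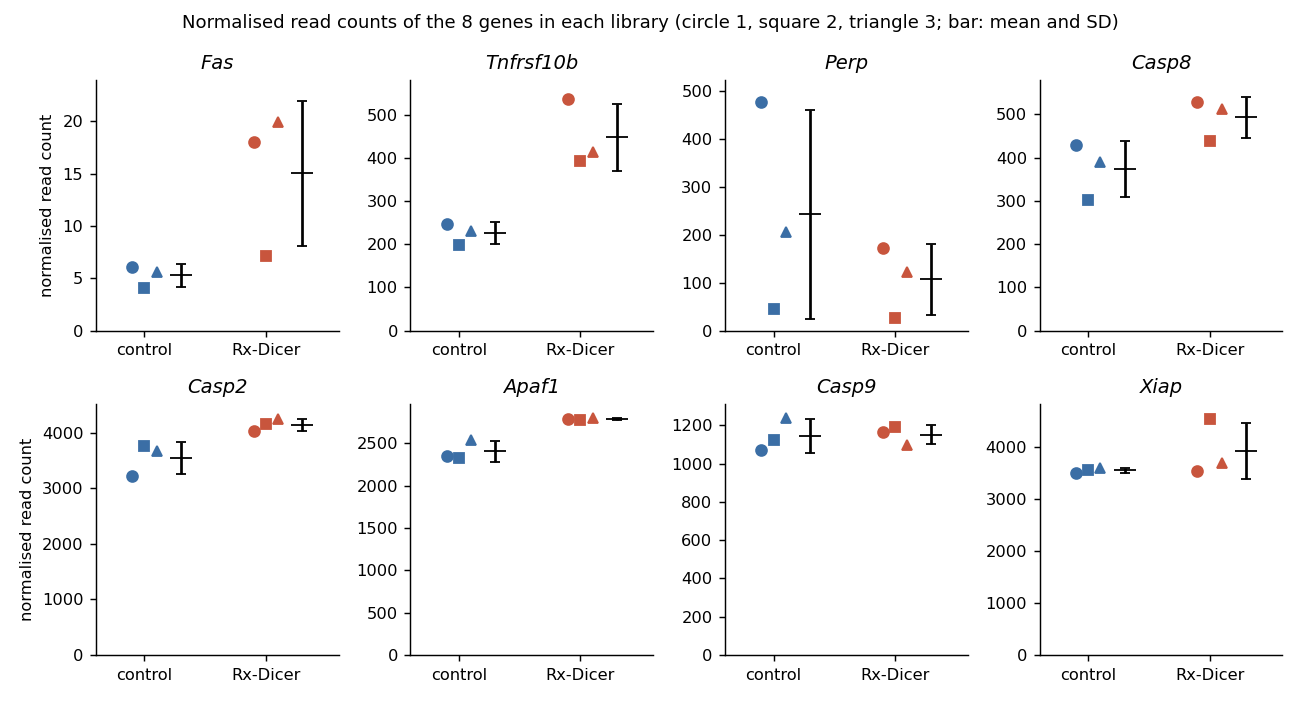
Normalised read counts (vertical axes, linear, starting at 0) of the 8 genes in control (blue) and Rx-Dicer (orange) libraries. Symbols give the replicate number, and the black bar gives mean and SD of 3 libraries. Tnfrsf10b is at 200 to 248 in controls and 394 to 538 in Rx-Dicer libraries, whereas Casp9, Xiap and Perp overlap between genotypes.

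Tnfrsf10b encodes the mouse TRAIL receptor, which carries a death domain and passes the signal of TRAIL to caspase 8. The gene lies at chr14:69767472-69784411 on the plus strand (GRCm38, ENSMUSG00000022074). Its normalised read count was 248, 200 and 232 in controls 1, 2 and 3, and 538, 394 and 415 in Rx-Dicer 1, 2 and 3. Each Rx-Dicer library lay above each control, and the lowest, the library labelled Rx-Dicer 2, was 1.74 times the control mean. The group means were 227 ± 24.6 and 449 ± 77.7 (SD, n = 3 each). This was a log2 fold change of 0.99 ± 0.20 (SE), or 1.98-fold with a 95% confidence interval of 1.52 to 2.59, at a DESeq2 adjusted p of 1.23e-04. Without the library labelled Rx-Dicer 2 it was 1.08 ± 0.21, with a DESeq2 adjusted p of 7.6e-05. Raw counts in a single file, not scaled for depth, were 94 to 126 in controls and 184 to 325 in Rx-Dicer samples. The files are repeat runs of the same samples and add no replicates. Under the quasi-likelihood test of edgeR the log2 fold change was 1.00 and the adjusted p 0.12, so the call was lost. That test called 8 of 17954 genes in all (0.0446%). The library with the highest Tnfrsf10b, Rx-Dicer 1, also had the highest microglia and macrophage markers. The library labelled Rx-Dicer 2 had 26.3 CPM of those markers and 394 normalised read counts of Tnfrsf10b. The part of those cells in the Tnfrsf10b values was not tested.

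The genes whose pattern over the 6 samples was nearest to Tnfrsf10b were found among 11930 protein-coding genes with a mean of at least 100 normalised read counts, by the root mean square difference of log2 values, each centred on its own mean. They were Fndc3b (difference 0.054), Jazf1 (0.114) and Col22a1 (0.115). Fndc3b, which encodes a membrane protein with fibronectin type III domains, had 1090, 841 and 994 normalised read counts in controls and 2138, 1684 and 1859 in Rx-Dicer samples. As in Tnfrsf10b, the lowest control was control 2 and the highest Rx-Dicer library was Rx-Dicer 1. Its log2 fold change was 0.96 ± 0.15, that of Jazf1 was 1.03 ± 0.24, and that of Col22a1, a collagen gene, was 0.83 ± 0.19. Since likeness over these samples takes in the difference between the genotypes, those fold changes follow from the choice and are a description.

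Fas encodes the receptor of FAS ligand, the classical death receptor of lymphocytes and of many epithelia. The gene lies at chr19:34290666-34327772 on the plus strand (GRCm38, ENSMUSG00000024778). Its raw counts were 5, 4 and 6 in the controls, against 21, 7 and 21 in Rx-Dicer 1, 2 and 3, where 3 counts were taken as the lowest level that a library can show. After scaling, these were 6.11, 4.07 and 5.64 against 18.0, 7.13 and 19.96 normalised read counts. Rx-Dicer 1 and 3 stood well above all control values, while the library labelled Rx-Dicer 2 was only just above the highest of them. This amounted to a log2 fold change of 1.52 ± 0.82, with an unadjusted DESeq2 p of 0.064, and 0.742 after adjustment when no gene was set aside for low counts. The first runs of the samples gave 0.98 and the second runs 2.07, a spread that shows how little the few reads fix the value. Microglia and macrophages are among the cells known to express Fas, and their markers were likewise high in Rx-Dicer 1 and 3 and close to control values in the library labelled Rx-Dicer 2. Of those 8 markers, 2 were called higher (Cx3cr1 and Csf1r), 7 had an unadjusted p under 0.05, and none was at 0 in every library. Their part in the Fas values was not tested.

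The ligand genes had few reads, at most 11 in a library. Fasl, which encodes FAS ligand, had 0 to 4.29 normalised read counts over the 6 libraries, and Tnfsf10, which encodes TRAIL, had 0 to 3.80. None of the 4 death ligand genes examined (these, Tnf and Lta) had enough counts to be tested. The adaptor gene Fadd was measured well, with 856, 886 and 903 normalised read counts in controls and 839, 749 and 904 in Rx-Dicer samples. Its log2 fold change was -0.09 ± 0.14 and the groups overlapped. Cflar encodes FLIP, the catalytically inactive relative of caspase 8 that holds it back at the receptor, and its log2 fold change was 0.00 ± 0.16. None of the 8 adaptors and brakes at the receptor was called.

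Among 8 other death receptors and decoys, 7 were tested, 1 was called higher and none lower. Over all 17128 genes tested, 2.93% were called and 1.75% were called higher, and with so few receptor genes the count is a description. The gene called higher was Eda2r, a receptor of the TNF receptor family that binds ectodysplasin A2 and is a known p53 target. Its normalised read counts were 142, 90.6 and 54.5 in controls, compared with 928, 280 and 630 in Rx-Dicer 1, 2 and 3. No library overlapped, though the library labelled Rx-Dicer 2 was the lowest of its group, as for Tnfrsf10b. Its log2 fold change was 2.68 ± 0.61 with a DESeq2 adjusted p of 0.0015, against 0.115 under the quasi-likelihood test of edgeR. Without the library labelled Rx-Dicer 2 it was 3.04 ± 0.38. With 1 library left out it ran from 2.26 without Rx-Dicer 1 to 3.08 without control 1. The DESeq2 adjusted p was 0.034 without Rx-Dicer 3 and 0.042 without control 2. Rx-Dicer 1 and 3, the libraries with the highest microglia and macrophage markers, also had the highest Eda2r. The part of those cells in the Eda2r values was not tested.

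Casp8 encodes the initiator caspase of the death receptors (chr1:58795374-58847503, plus strand, ENSMUSG00000026029). Its normalised read counts were 429, 301 and 391 in the controls, against 528, 439 and 511 in Rx-Dicer 1, 2 and 3. The lowest Rx-Dicer value, again the library labelled Rx-Dicer 2, exceeded the highest control by a narrow margin. Means were 374 ± 65.3 and 493 ± 47.4 (SD, n = 3 each), and the log2 fold change was 0.40 ± 0.19. The unadjusted p was 0.030 and the DESeq2 adjusted p 0.295, so Casp8 was not called. Its fold change on the log2 scale ran from 0.27 without control 2 to 0.51 without control 1. Microglia and macrophages also express Casp8, and the 2 libraries with high markers of those cells were the 2 with the highest Casp8. Their part in it was not tested.

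**Figure D2:**
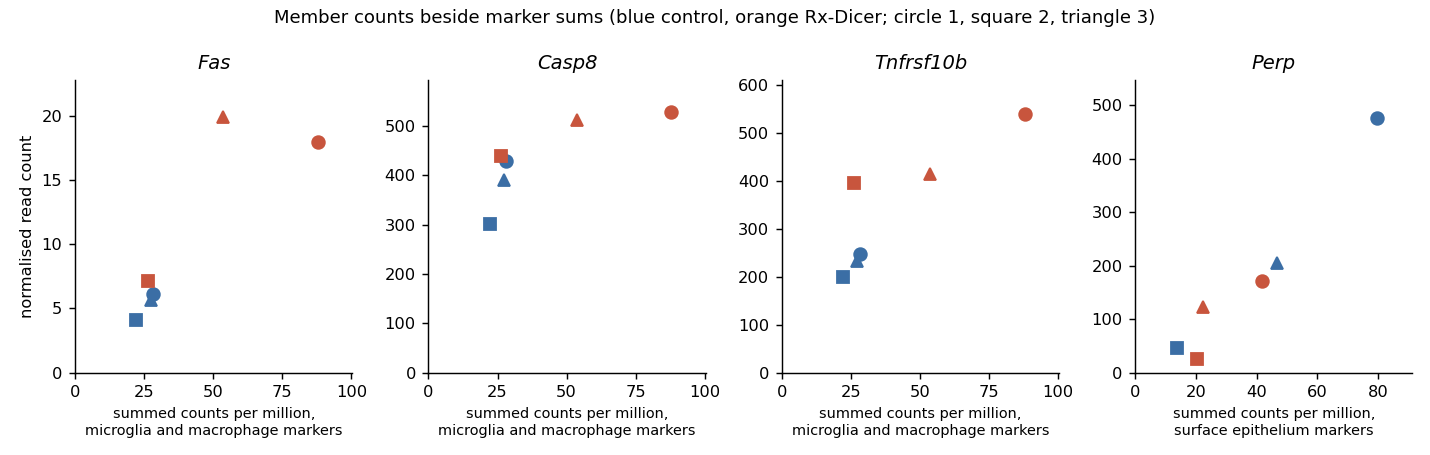
Normalised read counts of Fas, Casp8, Tnfrsf10b and Perp (vertical axes) against the summed level, in CPM, of 8 microglia and macrophage markers or, for Perp, 8 surface epithelium markers (horizontal axes), 1 symbol per library (blue control, orange Rx-Dicer). The library labelled Rx-Dicer 2 (orange square, 26.3 CPM of microglia and macrophage markers) is beside the controls in Fas (7.13) and apart from them in Tnfrsf10b (394).

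Casp2 encodes the caspase of the PIDDosome (chr6:42264985-42282508, plus strand, ENSMUSG00000029863). It had 3219, 3763 and 3674 normalised read counts in controls and 4033, 4158 and 4246 in Rx-Dicer samples. Every Rx-Dicer library, the one labelled Rx-Dicer 2 included, lay above every control. The means of 3552 ± 292 and 4145 ± 107 gave a log2 fold change of 0.22 ± 0.12, a 1.17-fold difference with a 95% confidence interval of 1.00 to 1.37. The DESeq2 adjusted p was 0.397, so the gene was not called, and the value fell to 0.14 after a correction for gene length and GC content.

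Pidd1, the sensor of the PIDDosome, had 1087, 1194 and 1106 normalised read counts in controls and 1533, 1318 and 1478 in Rx-Dicer samples. The groups did not overlap. Pidd1 thus had a log2 fold change of 0.35 ± 0.13 with a DESeq2 adjusted p of 0.118, short of a call. Without the library labelled Rx-Dicer 2 it was 0.42 ± 0.12 with a DESeq2 adjusted p of 0.013, the single setting that made it a call. Over 17 settings its log2 fold change ran from 0.31 to 0.42, with a DESeq2 adjusted p of up to 0.36. Cradd, the adaptor that ties PIDD1 to caspase 2, had a log2 fold change of -0.12 ± 0.18, and its groups overlapped.

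Apaf1 encodes the scaffold of the apoptosome (chr10:90989311-91082770, minus strand, ENSMUSG00000019979). Normalised read counts were 2352, 2322 and 2546 in controls, compared with 2791, 2771 and 2795 in Rx-Dicer 1, 2 and 3. The 3 Rx-Dicer libraries were almost equal and all lay above the controls. The means were 2407 ± 121 and 2786 ± 12.7, and the log2 fold change was 0.21 ± 0.11, at a DESeq2 adjusted p of 0.397. The value fell to 0.10 after the correction for length and GC content.

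Casp9 encodes the initiator caspase that the apoptosome activates (chr4:141793612-141815976, plus strand, ENSMUSG00000028914). Its normalised read counts were 1070, 1122 and 1239 in the controls, against 1167, 1191 and 1096 in Rx-Dicer samples. The groups overlapped, and the log2 fold change was 0.0089 ± 0.13 (DESeq2 adjusted p = 0.993). The 95% confidence interval of the fold, 0.85 to 1.20, holds neither a loss nor a gain of the size seen in Tnfrsf10b. Of 5 cytochrome c and apoptosome partner genes, all tested, none was called. Cycs, which encodes cytochrome c, had 3206, 3656 and 3542 normalised read counts in controls and 3086, 2462 and 3005 in Rx-Dicer samples, all 3 below the controls. Its log2 fold change was -0.28 ± 0.13, with an unadjusted p of 0.034 and a DESeq2 adjusted p of 0.316. Diablo, which encodes the mitochondrial antagonist of XIAP, had a log2 fold change of 0.17 ± 0.19.

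Xiap encodes an inhibitor of active caspases (chrX:42059679-42109656, plus strand, ENSMUSG00000025860). The controls were close together at 3498, 3550 and 3593 normalised read counts. The Rx-Dicer values were 3533, 4533 and 3694, so that the high mean of 3920 ± 537 came from the library labelled Rx-Dicer 2. Xiap differed by 0.14 ± 0.13 on the log2 scale (DESeq2 adjusted p = 0.770), and it was 0.03 without that library. The other IAP genes and Xaf1, 5 in all, were tested and not called. Birc5, which encodes survivin and is highest in dividing cells, had 4693, 4941 and 4977 normalised read counts in controls and 3808, 4198 and 4452 in Rx-Dicer samples. All 3 lay below the controls, with a log2 fold change of -0.23 ± 0.11 and a DESeq2 adjusted p of 0.358. Such full separation downward, also seen in Cycs, was found in 1836 of the 17128 genes tested.

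Casp6, which encodes a caspase cleaved by other caspases, had a log2 fold change of -0.08 ± 0.13, and its groups overlapped. Of the 6 substrates of execution examined, all were tested and none was called. Over the 45 other genes of the pathways together, 37 were tested, 1 was called higher, none lower, and the median log2 fold change was 0.04. At an unadjusted DESeq2 p under 0.05 there were 4, with Eda2r and Pidd1 higher and Cycs and Birc5 lower. With DESeq2, neither the 1 call nor these 4, of 37 genes, exceeded the shares over all genes tested, 2.93% and 13.1%. With edgeR the share at an unadjusted p under 0.05 was 21.1% of 38 pathway genes, above the 12.9% of all genes it tested. Those genes included Casp1, Xaf1 and Tnfrsf23, with at most 45, 31 and 18 raw counts in a library. Since the list was chosen with earlier results known, this share is a description.

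**Figure D3:**
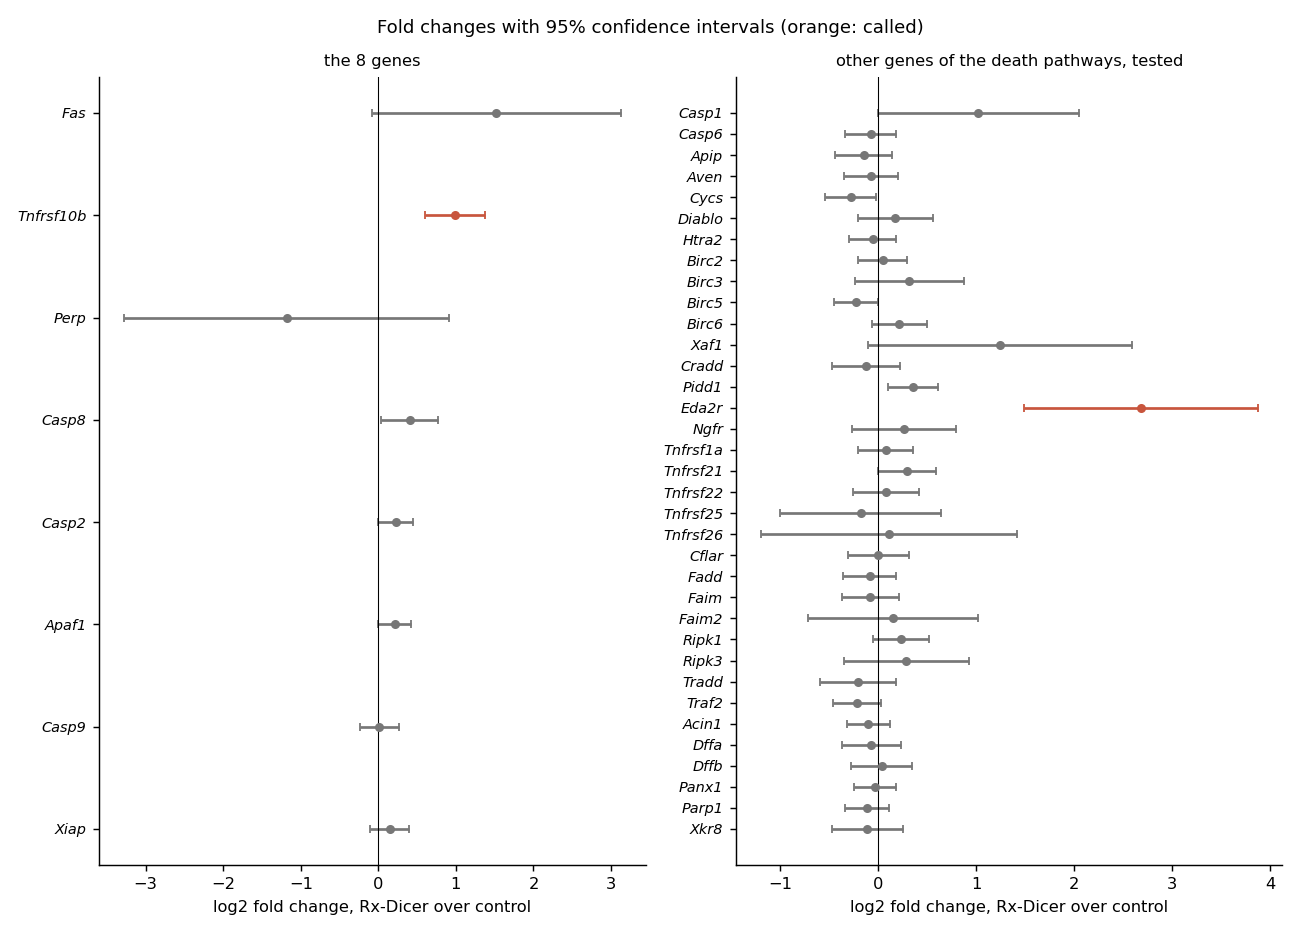
Log2 fold change of Rx-Dicer over control (horizontal axes) with 95% confidence intervals from DESeq2, for the 8 genes (left) and for 35 tested genes of the same pathways (right). Orange points were called, namely Tnfrsf10b at 0.99 and Eda2r at 2.68, and grey points were not. The widest intervals are those of Perp and Fas.

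Perp encodes a tetraspan membrane protein, known as a p53 target in dying cells and as a part of desmosomes in stratified epithelia (chr10:18845020-18857073, plus strand, ENSMUSG00000019851). Its normalised read counts were 475, 45.8 and 205 in controls 1, 2 and 3, and 172, 25.5 and 123 in Rx-Dicer 1, 2 and 3. The libraries of 1 genotype differed from each other more than the genotypes did, with a coefficient of variation of 89.7% among controls and 69.8% among Rx-Dicer samples. Between genotypes the log2 fold change was -1.18 ± 1.07 with a DESeq2 adjusted p of 0.767, and the 95% confidence interval of the fold ran from 0.10 to 1.88. Without control 1 it was -0.24. The summed level of 8 surface epithelium markers was 79.8, 13.8 and 46.8 CPM in controls and 42.0, 20.4 and 22.5 in Rx-Dicer samples. Within each genotype the libraries had the same order in these markers as in Perp, with replicate 1 highest and replicate 2 lowest. None of these 8 markers was called, 2 of them, both with a lower mean in Rx-Dicer samples, had an unadjusted p under 0.05, none was at 0 in every library, and their part in the Perp values was not tested.

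Levels were compared between the genes as normalised read counts per kb of annotated exon. In controls the order was Casp2 (503 ± 41.4 per kb), Xiap (375 ± 5.03), Apaf1 (267 ± 13.4), Casp9 (220 ± 16.7), Casp8 (129 ± 22.6), Perp (124 ± 111), Tnfrsf10b (41.6 ± 4.52) and Fas (2.56 ± 0.516; SD, n = 3). The first 4 genes stood apart from each other, each with its lowest control library above the highest of the next gene. Casp9 was likewise above Casp8. Casp8 and Perp overlapped, as did Perp and Tnfrsf10b. In Rx-Dicer samples the order was the same except that Tnfrsf10b, at 82.3 ± 14.2 per kb, exceeded Perp, at 54.6 ± 38.1. By their control means, Casp2, Xiap, Apaf1 and Casp9 were the most abundant and both death receptors the least. Single libraries of Perp departed from that order, since control 1 (243 per kb) was above every control value of Casp9 and control 2 (23.5) below every control value of Tnfrsf10b. Reads that overlapped more than 1 gene were not counted for any, and since strand was used, only Casp2, Casp8 and Fas share their strand with another annotated gene.

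Because Dicer makes mature miRNAs, the transcripts were searched for the word that pairs with the let-7 family, a group of abundant miRNAs that are named by a shared seed, bases 2 to 8. All 8 let-7 names of the 5′ arm in the RefSeq table held the seed GAGGUAG. The mature sequence of 1 of them is given with its seed in capitals, followed by the single match in a 3′ UTR of the 8 genes, that of Fas, with the reverse complement of the seed in capitals.
let-7a-5p: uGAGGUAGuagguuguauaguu
Fas 3′ UTR: tggagtgaaaaCTACCTCagttccagcca
The search was for CTACCTC and for CTACCTCA on the transcript strand of the longest coding transcript of each gene (GENCODE, GRCm38), where every CTACCTCA also holds a CTACCTC. The Fas match was CTACCTCA. It began at base 4 of the 448 bases of the 3′ UTR, just after the stop codon, at chr19:34327328-34327334 on the plus strand.

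Among 17503 genes with a count and an annotated 3′ UTR, 9.6% held CTACCTC there and 3.3% held CTACCTCA. Apaf1 had no match in its 3′ UTR but 2 in its coding sequence, the first of them a CTACCTCA. Casp8 had 1 in its 5′ UTR. These 3 are given in the same way.
Apaf1 coding, chr10:91060216-91060222, minus strand: cgctgggcataCTACCTCagacagcttca
Apaf1 coding, chr10:90999671-90999677, minus strand: caagttttcatCTACCTCtgctgataaga
Casp8 5′ UTR, chr1:58823927-58823933, plus strand: ttacagctcttCTACCTCttgataagaat
Tnfrsf10b, the gene called higher, had no match in its longest coding transcript, and neither had Casp2, Casp9, Xiap or Perp. A match describes letters in these windows and is not evidence of pairing, and the levels of let-7 itself were not analysed here.

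**Figure D4:**
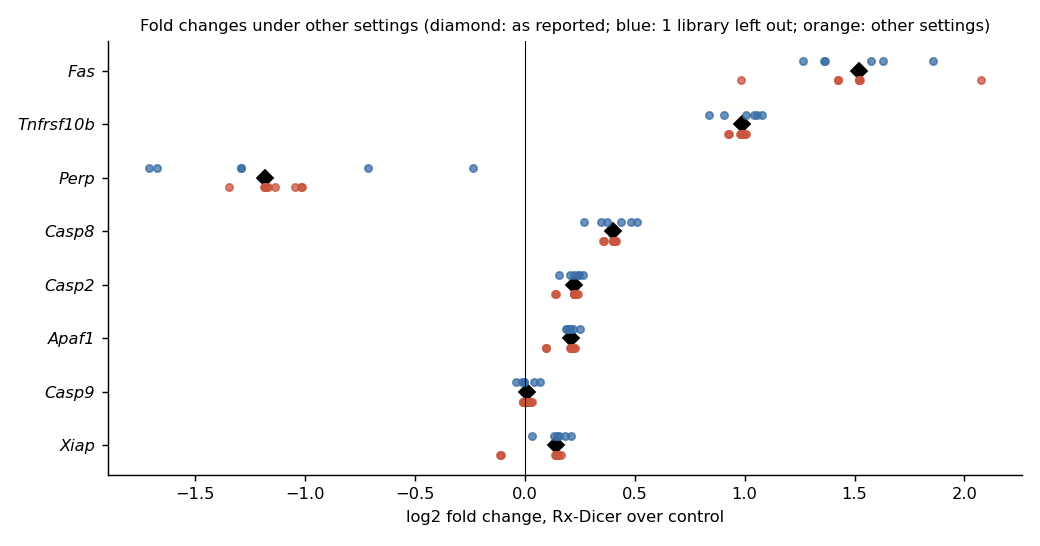
Log2 fold change of Rx-Dicer over control (horizontal axis) of each gene as reported (black diamond), with 1 library left out (blue) and under other scalings, filters, runs or models (orange). Tnfrsf10b stays between 0.84 and 1.08, whereas Perp moves from -1.71 to -0.24 and Fas from 0.98 to 2.07.

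Left-out libraries and other models gave the same sign for 6 of the 8 genes throughout. On the log2 scale Tnfrsf10b lay between 0.84 and 1.08 and Casp2 between 0.14 and 0.27. Casp8 lay between 0.27 and 0.51 and Apaf1 between 0.10 and 0.25. Casp9 and Xiap, with main values of 0.0089 and 0.14, took both signs.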

How the data were processed

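RNA of the rostral telencephalic primordium at E11.5 was sequenced as directional libraries from 3 control and 3 Rx-Dicer samples. The deposited values are raw read counts per gene. The authors trimmed reads with Trim Galore, aligned them to GRCm38 with HISAT2 and used HTSeq (union mode, reverse strand) to count them against Ensembl genes, so reads on near-identical copies or overlapping genes are lost. Tally rows that name no gene, 24.9 to 31.0% of all reads, were left out. Each sample had 2 files. They differed by little more than counting error (chi-square per degree of freedom 1.13 to 1.52, against 22.5 to 32.6 between samples of a group), and were summed. Library totals of 34471501 to 48373468 put the level of 3 counts at 0.062 to 0.087 CPM, which covers counting error only.

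Genotypes were compared with the DESeq2 1.42.0 Wald test in R 4.3.3 on the whole table, with genotype as the only term, unshrunken log2 fold changes, and Benjamini-Hochberg adjustment after independent filtering. Calls were made below an adjusted p of 0.05 where the fold exceeded 1.25. edgeR 4.0.16 (quasi-likelihood, on genes that reached 10 counts in 3 or more samples) was an alternative, with other scalings, filters, single files, the replicate number as a block, factors that removed trends with gene length and GC (spline df 5, pseudocount 0.5), and each library left out in turn. Both tools were tested on simulated data with 200 genes changed 2-fold, drawn with the spread between replicates that edgeR estimated. Of the calls at an adjusted p under 0.05, 24.6% were wrong with DESeq2 and 8% with edgeR. DESeq2 recovered 88.4% of the changed genes and edgeR 74%.

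The 8 genes, the pathway list and the marker lists were chosen with earlier results of these data known. Named genes are the 8 genes, pathway genes that were called, Casp6, Cycs, Diablo, Fadd, Cflar, Birc5, Pidd1, Cradd, Fasl and Tnfsf10, Dicer1, and the 3 genes nearest in pattern to each called gene (log2 of the normalised read count plus 1). Some genes of the rule are not reported here by name and stay in the counts. Markers of 7 cell types were summed in CPM. Sums in controls and Rx-Dicer samples overlapped for neurons (1036 to 1404 and 849 to 1222 CPM), endothelium (145 to 146 and 80.6 to 194), head mesenchyme (360 to 896 and 641 to 754) and erythroid cells (7558 to 17168 and 5917 to 16457). Exon lengths, positions and transcripts came from GENCODE for GRCm38, in which 55230 of 55471 identifiers were found, and let-7 sequences from RefSeq. Small RNA libraries were not analysed here.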

Additional observations from a re-analysis of the deposited data

How the results depend on the processing

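With edgeR's quasi-likelihood test, 0 of the 8 genes and 0 pathway genes were called and 8 genes in the whole table. In that test Tnfrsf10b had a log2 fold change of 1.00 and an adjusted p of 0.12, the single setting in which it was not called. At an unadjusted p under 0.05 edgeR held Casp2, Casp8, Apaf1 and Tnfrsf10b, all higher, beside 12.9% of all genes it tested. It also held 8 of 38 pathway genes (21.1%), 6 of them higher, a share above that of all genes, unlike with DESeq2. Some of them had few reads and the list was chosen with earlier results known, so that share is a description. Without independent filtering 322 genes were called in the whole table. Leaving out 1 library at a time gave 1 call among the 8 genes each time, 1 to 2 in the pathway list and 285 to 637 in the whole table. Tnfrsf10b then lay between 0.84 and 1.08 with DESeq2 adjusted p from 7.6e-05 to 0.0053. The 2 pathway calls, Eda2r and Pidd1, were without the library labelled Rx-Dicer 2, and the lowest count over all genes was without control 2.

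The shared replicate numbers did not pair the samples, since correlations of same-numbered deviations from the group means were 0.27, -0.065 and -0.28 and not every sample correlated best with its own number. With the replicate block 2 of the 8 genes were called and 314 genes in the whole table, and 2 and 293 where the length and GC correction was added to it. The added gene was Perp, at -1.04 (DESeq2 adjusted p = 0.042) and -1.02 (0.040). The block changed no other call among the 8 genes.

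Casp9 changed sign with the first files alone (-0.0084), with the length and GC correction (-0.0095) and with that correction and the block (-0.0085), and ran from -0.038 to 0.071 with 1 library left out. Xiap turned to -0.11 under the length and GC correction and to -0.11 with the block as well. The causes were not tested. Counts limit Fas, which in control libraries rests on 4 to 6 reads.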

Other observations

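A few genes of the same pathways, chosen after their values were seen and only among higher ones, also lay higher in Rx-Dicer libraries without a call. Of the 37 tested pathway genes, all 3 Rx-Dicer values lay above the controls in 4. They lay below the controls in 3, namely Cycs, Birc5 and Traf2. Over all 17128 genes tested, 1464 lay above and 1836 below in this way, so the genes given here are a description. Casp1, the inflammatory caspase that matures interleukin 1 beta, had 22.0, 11.2 and 16.9 normalised read counts in controls and 31.7, 26.5 and 42.8 in Rx-Dicer 1, 2 and 3, with a log2 fold change of 1.02 ± 0.52 (DESeq2 adjusted p = 0.386). Casp1 is known from macrophages, whose markers were higher in Rx-Dicer 1 and 3, and their part in its values was not tested. The decoy receptor gene Tnfrsf23 had 4.89, 5.09 and 8.45 normalised read counts in controls and 11.1, 18.3 and 13.3 in Rx-Dicer samples. It had too few counts for an adjusted p. Ripk1, which encodes the kinase between receptor signalling and cell death, had 580, 664 and 692 in the controls, against 796, 705 and 780 in Rx-Dicer samples, with a log2 fold change of 0.23 ± 0.15 (DESeq2 adjusted p = 0.544).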
